A study of Homo sapiens with 8 samples.

Results

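The 40 genes described here are interferon-stimulated genes, whose transcription rises when a cell is exposed to interferon. They were taken by symbol from the expression tables, and the list was chosen with earlier results of these data known. Of these 40 genes, 38 were in the MS8815 table (18744 genes), and 37 were in the EPZ-6438 table (18320 genes), in the MS8815N table (18398 genes) and in all 3. RSAD2 was in the MS8815 table alone, and ISG15 and IFI44L were not analysed here. Transcripts were measured by RNA sequencing in SUDHL6, an established human lymphoma line (diffuse large B-cell type, germinal-centre subtype), grown in RPMI1640 medium with fetal bovine serum. Every group is this 1 line, and each of the 4 groups had 2 libraries. MS8815 is a PROTAC, a molecule that brings its target to a ubiquitin ligase for degradation, directed at EZH2, the enzyme of polycomb repressive complex 2 that methylates histone H3 at lysine 27. EPZ-6438 (tazemetostat) inhibits the enzymatic domain of EZH2, and MS8815N is an analog of MS8815 that is not a PROTAC and serves as its control. These 3 compounds were given at 2.5 µM for 18 h, and DMSO was the vehicle. The labels call the libraries duplicates without naming separate cultures, and a p-value here reflects only how far these libraries spread, which may be technical.

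Interferons are secreted when sensors of viral or misplaced nucleic acid are triggered. They bind receptors that activate the JAK kinases, and these phosphorylate STAT proteins. STAT2 and IRF9 are subunits of the complex ISGF3, which binds the interferon-stimulated response element in the promoters of many of these genes, and interferon-gamma acts on another element, the gamma-activated site. The products sense RNA, degrade it, block translation or viral entry, attach the ubiquitin-like protein ISG15 to other proteins, or hold the response back.

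Many of the promoters hold the response element that ISGF3 binds. RefSeq promoter windows on GRCh38.p14, running from 250 bases before to 50 bases after the start site, were matched for 31 of the 40 genes (DDX58 under its newer symbol RIGI). The core of the element was searched as GAAANNGAAA on both strands, where it reads TTTCNNTTTC on the opposite one, and overlapping matches were counted. It was present in 20 of 31 windows (64.5%), against 3.57% of the 35116 promoter windows of the same length in the table, and 13 of the 20 held at least 2 matches. The gamma-activated site, searched as TTCNNNGAA, was present in 9 of 31 (29%), against 7.66% of all promoter windows. The matches are a description of these letters and not measured binding sites. The 11 stretches below were chosen by hand to show the core in genes of each call. They include no oligoadenylate synthetase gene, although OAS3 holds 2 matches. They also include no transcription factor, since STAT2, IRF9 and IRF1 hold no match and IRF7 has no window. The first 7 stretches are from genes that were higher with MS8815 and the next 3 from genes that were lower. The last is from a gene that was not called. Each is written 5′ to 3′ on the strand of its gene, with the matches in capitals.
IFIT1, chr10:89392488-89392547, plus strand: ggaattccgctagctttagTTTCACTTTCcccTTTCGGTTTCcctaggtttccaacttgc
IFIT3, chr10:89332420-89332502, plus strand: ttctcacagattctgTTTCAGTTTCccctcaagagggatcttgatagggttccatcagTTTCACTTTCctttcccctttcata
IFIT5, chr10:89414508-89414588, plus strand: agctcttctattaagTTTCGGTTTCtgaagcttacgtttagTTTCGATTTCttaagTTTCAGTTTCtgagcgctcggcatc
RSAD2, chr2:6877607-6877666, plus strand: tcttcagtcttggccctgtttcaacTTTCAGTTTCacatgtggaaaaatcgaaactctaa
HERC5, chr4:88456979-88457069, plus strand: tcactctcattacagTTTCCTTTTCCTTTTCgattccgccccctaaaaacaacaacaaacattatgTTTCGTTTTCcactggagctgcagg
IFITM3, chr11:320870-320929, minus strand: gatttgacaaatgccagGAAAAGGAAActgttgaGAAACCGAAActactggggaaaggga
IFI44, chr1:78649746-78649805, plus strand: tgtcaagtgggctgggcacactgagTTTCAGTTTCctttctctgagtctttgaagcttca
IFIH1, chr2:162318681-162318858, minus strand: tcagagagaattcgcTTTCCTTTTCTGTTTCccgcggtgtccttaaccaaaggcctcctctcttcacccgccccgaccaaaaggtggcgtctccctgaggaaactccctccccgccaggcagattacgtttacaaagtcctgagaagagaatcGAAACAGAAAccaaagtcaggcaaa
SAMD9, chr7:93118081-93118140, minus strand: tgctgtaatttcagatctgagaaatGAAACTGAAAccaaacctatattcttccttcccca
BST2, chr19:17405723-17405782, minus strand: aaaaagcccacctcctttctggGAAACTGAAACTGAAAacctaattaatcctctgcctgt
EPSTI1, chr13:42992257-42992316, minus strand: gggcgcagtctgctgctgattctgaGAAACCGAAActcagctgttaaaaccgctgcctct
RSAD2, IFI44, SAMD9 and EPSTI1 hold a single match, the matches of IFIT1 are separated by 3 bases, and in BST2, HERC5 and IFIH1 neighbouring matches share 4 bases. All 37 matches in the 20 windows began between 196 and 4 bases before the start site. Of the genes with a window, 14 of 21 that were higher with MS8815 held the core, as did 3 of 3 that were lower (IFIH1, SAMD9 and BST2) and 1 of 5 that were not called (EPSTI1). RSAD2, in the MS8815 table alone, is among the 14 and the 21. Genes of either direction thus held the core.

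**Figure D1:**
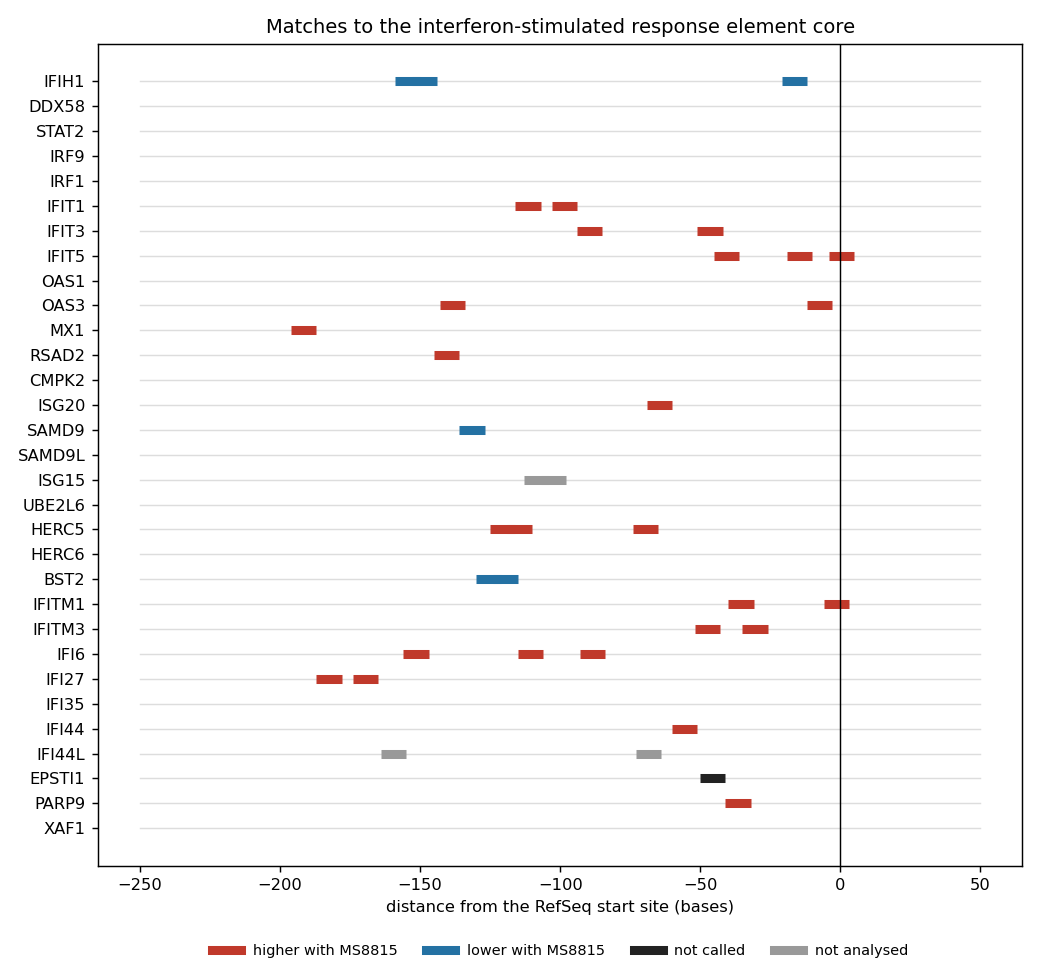
Matches to the core of the interferon-stimulated response element in the RefSeq promoter windows of 31 interferon-stimulated genes; the x axis is the distance from the start site in bases, each row is a gene, and a bar is a match, coloured by the gene's call with MS8815 against DMSO. The bars lie before or across the start site, and genes that were lower (IFIH1, SAMD9, BST2) carry them as well as genes that were higher.

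Depth differed between the groups. It was estimated at about 13000000 and 14600000 reads for MS8815, 30500000 and 26000000 for EPZ-6438, 34100000 and 30200000 for MS8815N, and 30900000 to 31700000 for DMSO. The MS8815 libraries also stood apart in cell-type markers. Genes of adherent cells (keratins, collagens, AXL and others) were higher in 23 of 25 analysed of 26 listed, against 24.5% of all genes. Their median log2 fold change was 4.05. Their summed normalised read count was 52048 and 52812 with MS8815, against 3280 and 3024 with DMSO. None of the 25 was at 0 in any of these libraries. Genes of B cells were lower in 20 of 22, against 22.4% of all genes. Their median was -1.03, with a sum of 85663 and 86216 with MS8815, against 170292 and 171169 with DMSO. Fewer cells of a type and less RNA per cell cannot be told apart in such bulk samples. Myeloid and plasmacytoid dendritic cell markers were higher in 2 of 5 analysed of 11 listed (CD14 and CSF1R), against 24.5% of all genes. Their sum was 195 and 222 with MS8815, against 135 and 175 with DMSO, and IL3RA was at 0 in 1 MS8815 library. None of 3 T-cell and NK-cell markers analysed of 8 listed was called, against 46.9% of all genes. Their sum was 38.0 and 53.1 with MS8815, against 69.5 and 53.3 with DMSO, and none was at 0. B-cell genes were present at high level in every library, as the label of the line says. The mRNA of EZH2 was at -0.27 ± 0.060 (log2 fold change ± SE, adjusted p = 0.0123) with MS8815, 0.019 ± 0.042 with EPZ-6438 and -0.029 ± 0.042 with MS8815N. Its protein, the direct target of a degrader, was not analysed here.

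With MS8815 the interferon-stimulated genes were mostly higher than with DMSO. Of the 38 genes, 28 rose and 4 fell (IFIH1, TRIM22, SAMD9 and BST2), and 6 were not called (STAT2, IRF9, OAS1, MX2, CMPK2 and EPSTI1). RSAD2, one of the 28, is in the MS8815 table alone, although the same DMSO libraries are in all 3 tables. A filter on low values that it passed only with the MS8815 libraries is inferred from this, not known. Among the 37 genes in all 3 tables, 27 rose and 4 fell, with a median of 2.48. Of all genes in all 3 tables, 46.5% were called. These 27 rises ranged from PARP9 at 0.88 to IFIT1 at 4.78 on the log2 scale, and the IFIT genes, OAS3, OASL, SAMD9L, HERC5 and IFITM3 lay between 3.84 and 4.78. A gene was called at an adjusted p under 0.05 in limma's moderated test with Benjamini-Hochberg adjustment over the whole table. The share called was 84.2% of the 38 genes, against 46.9% of all genes in the table, and the share higher was 73.7%, against 24.5%. The share lower was 4 of 38, against 22.4% of all genes. The median log2 fold change was 2.50, against -8.1e-05 for all genes. In 33 of the 38 genes the MS8815 and DMSO libraries did not overlap, against 73.7% of all genes. Without DMSO replicate 1 limma called 15 of the 38, all higher, against 19.5% of all genes, with a median of 2.44. Without DMSO replicate 2 it also called 15, all higher, against 19.1% of all genes, with a median of 2.28. These fits have 1 residual degree of freedom, from the MS8815 libraries alone, and assume that the lone DMSO library varies like them; the adjusted p-values given below for them are to be read with that limit. Quantile normalisation gave 19 higher and 5 lower with a median of 1.25, against 19.8% of all genes higher. Scaling the libraries to equal B-cell genes gave 33 higher and 0 lower with a median of 3.53, against 72.6% of all genes higher. Those scalings moved the median of all genes to -0.20 and 1.04.

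**Figure D2:**
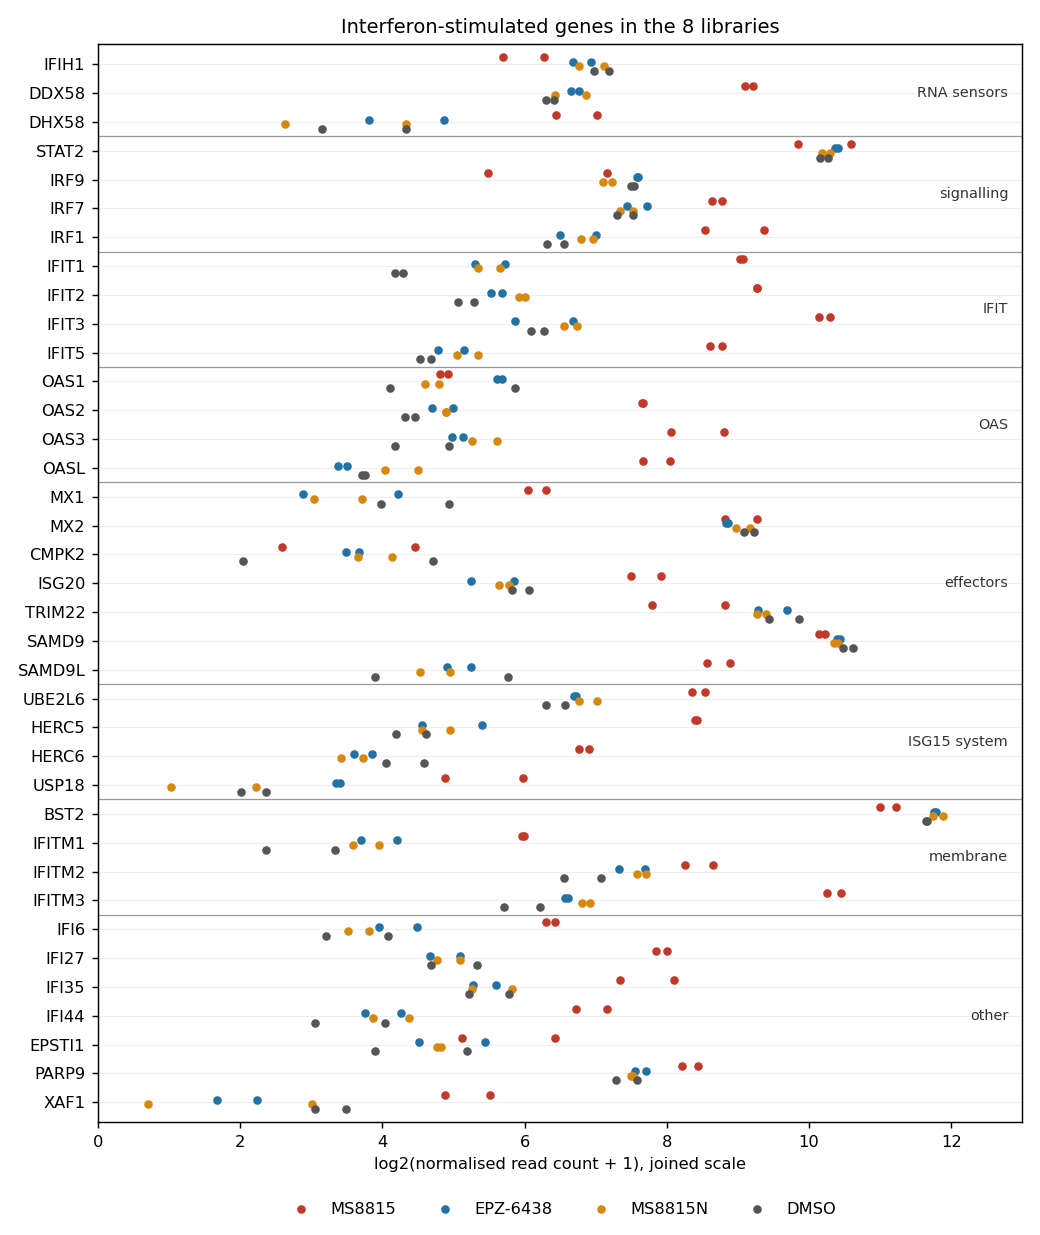
Level of 37 interferon-stimulated genes in the 8 libraries, as log2(normalised read count + 1) on a scale joined over the 3 tables; each point is 1 library, coloured by treatment, and rows are grouped by role. The MS8815 points lie to the right of the others for most genes and to the left for IFIH1, TRIM22, SAMD9 and BST2, while EPZ-6438 and MS8815N points lie close to DMSO.

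Of the 3 sensors of RNA in the cytoplasm, 2 rose and 1 fell, beside 24.5% of all genes higher and 22.4% lower. DDX58, which encodes RIG-I, the sensor of RNA with triphosphate ends (GRCh38 chr9:32455705-32526324, minus strand), had normalised read counts of 381 and 350.4 with MS8815, against 49.6 and 53.9 with DMSO. The groups were far apart, at 2.80 ± 0.18 (log2 fold change ± SE, n = 2 each, limma adjusted p = 0.00013). DHX58, which encodes LGP2, a regulator of the other two sensors, had 56.7 and 37.9 with MS8815, against 8.43 and 3.49 with DMSO, a change of 2.86 ± 0.55 (adjusted p = 0.00675). IFIH1, which encodes MDA5, the sensor of long double-stranded RNA (chr2:162267079-162318703, minus strand), had 50.3 and 33.5 with MS8815, against 95.1 and 82.7 with DMSO, a change of -1.09 ± 0.31 (adjusted p = 0.0267) that was -0.04 and not called after scaling to B-cell genes. IFIH1 and DDX58 thus moved in opposite directions, and DDX58 was called in every alternative run that gave a test. In limma with 1 library left out, the adjusted p of IFIH1 was 0.211 or 0.147 when DMSO replicate 1 or 2 was removed, and 0.0592 when MS8815 replicate 2 was. That of DHX58 was 0.0673 or 0.103 when DMSO replicate 1 or 2 was removed, and 0.0548 after quantile normalisation.

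Of the transcription factors, IRF7 and IRF1 rose, whereas STAT2 and IRF9, subunits of ISGF3, were not called. IRF7, the main inducer of interferon-alpha genes, had 253 and 279 with MS8815, against 99.4 and 117 with DMSO (1.29 ± 0.17, adjusted p = 0.00197). IRF1, a factor induced by interferon-gamma, had 417 and 235 with MS8815, against 49.6 and 58.9 with DMSO (2.51 ± 0.31, adjusted p = 0.00376). Both MS8815 libraries were above both DMSO libraries for these factors. STAT2 had 588 and 979.6 with MS8815, on either side of the 779.8 and 729 with DMSO (0.0094 ± 0.23, adjusted p = 0.924). IRF9 had 30.8 and 101 with MS8815, against 127 and 132 with DMSO (-1.20 ± 0.54, adjusted p = 0.102). The MS8815 libraries differed widely for both: STAT2 was at 0.38 (adjusted p = 0.0408) without MS8815 replicate 1, and IRF9 at -2.03 (adjusted p = 0.0109) without MS8815 replicate 2. STAT2 was called higher, at 1.08 (adjusted p = 0.0192), after scaling to B-cell genes, and IRF9 was called lower, at -2.22 (adjusted p = 0.0114), after quantile normalisation. With DMSO replicate 1 left out the adjusted p was 0.0635 for IRF7 and 0.0849 for IRF1, and without DMSO replicate 2 it was 0.0765 for IRF1. IRF7 was also not called after quantile normalisation (0.53, adjusted p = 0.0558). Reads of IRF9 are uncertain, since 50.3% of its stretches of 31 bases occur in another gene, mostly the overlapping AL136295.5, and 28.5% of those of IRF1 do, mostly the antisense C5orf56, whose reads cannot be told apart from its own without strand.

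The IFIT genes, whose products bind viral RNA and block its translation, rose together and by similar amounts. IFIT1, which recognises RNA lacking cap methylation (chr10:89392546-89406486, plus strand), had 345 and 335 with MS8815, against 11.9 and 11.01 with DMSO, a change of 4.78 ± 0.24 (adjusted p = 5.02e-05). IFIT2, its partner (chr10:89283694-89309276, plus strand), had 382 and 383 with MS8815, against 23.6 and 20.1 with DMSO (4.07 ± 0.22, adjusted p = 5.3e-05). IFIT3, which stabilises IFIT1 (chr10:89327894-89340971, plus strand), had 809 and 725 with MS8815, against 43.1 and 49.3 with DMSO (4.03 ± 0.16, adjusted p = 3.51e-05). IFIT5, on the same stretch of chromosome 10, had 281 and 249.9 with MS8815, against 15.8 and 14.2 with DMSO (4.06 ± 0.25). The replicates lay close together in both groups, and the lowest MS8815 value of each gene was more than 10 times its highest DMSO value. IFIT1, IFIT2 and IFIT3 were called in each alternative that kept them in the table and gave a test. As a share of the summed normalised count of the 38 genes, the IFIT genes made 18.4% and 18.1% with MS8815, against 1.63% and 1.71% with DMSO. Their rises of 4.03 to 4.78 stand beside the median of 4.05 of the adherent-cell genes in the same libraries, and the part of adherent-cell RNA in them was not tested.

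The oligoadenylate synthetases make the second messenger that activates RNase L, and 3 of the 4 rose, against 24.5% of all genes. OAS3, the largest of them, had 283 and 168 with MS8815, against 18.8 and 10.8 with DMSO (3.84 ± 0.40, adjusted p = 0.00148). OAS2 had 123 and 125 with MS8815, against 12.9 and 11.7 with DMSO (3.23 ± 0.30, adjusted p = 0.000416). OASL, which lacks synthetase activity and enhances RIG-I signalling, had 169.7 and 130.4 with MS8815, against 7.80 and 8.09 with DMSO (4.07 ± 0.33, adjusted p = 0.000401). These MS8815 libraries were all above 100, and the DMSO libraries all under 20. OAS1 differed, with 17.8 and 16.3 with MS8815, inside the range of 34.5 and 9.83 with DMSO (-0.12 ± 0.65, adjusted p = 0.797). The wide DMSO range of OAS1 leaves an interval of -1.72 to 1.48 on the log2 scale (95%). OAS1, OAS3 and OAS2 are neighbours on chromosome 12, at 112906777, 112938352 and 112978395 (plus strand, GRCh38), so the gene that was not called lies beside 2 that rose. Without DMSO replicate 2 the adjusted p of OAS3 was 0.0553.

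The other direct effectors moved in both directions. Of the 8, 4 were higher, 2 lower and 2 not called, beside 24.5% of all genes higher and 22.4% lower. The 4 include RSAD2, whose direction would be fixed by the inferred filter on low values. RSAD2, which encodes viperin, a maker of a chain-terminating nucleotide (chr2:6865806-6898239, plus strand), had 39.7 and 31.2 with MS8815, against 0.658 and 0 with DMSO. At the estimated depth these values correspond to about 24 and 22 reads with MS8815, against 1 and 0 reads with DMSO. Under the inferred filter, which the gene passed only with the MS8815 libraries, its direction is fixed in advance. No test is therefore read from it. CMPK2, a nucleotide kinase gene that lies head to head with RSAD2, had 13.5 and 3.21 with MS8815, inside the range of 1.98 and 16.3 with DMSO. SAMD9L and SAMD9 are neighbouring paralogs on chromosome 7 whose products inhibit poxviruses, and they moved oppositely. SAMD9L (chr7:93130055-93148369, minus strand) had 230.3 and 183 with MS8815, against 25.8 and 6.75 with DMSO (3.84 ± 0.60, adjusted p = 0.000805). SAMD9 (chr7:93099513-93118023, minus strand) had 708 and 753 with MS8815, against 989 and 897 with DMSO (-0.37 ± 0.091, adjusted p = 0.0201), and was higher, at 0.70 (adjusted p = 0.0014), after scaling to B-cell genes. In DMSO SAMD9 stood at 138 normalised counts per kilobase of exon and SAMD9L at 2.28. The paralogs share under 1% of their stretches of 31 bases, so their reads can be told apart. TRIM22, a ubiquitin ligase gene, had 252 and 123 with MS8815, against 515 and 386 with DMSO (-1.34 ± 0.35, adjusted p = 0.017), and was at -0.27 and not called after scaling to B-cell genes; 17.2% of its stretches of 31 bases occur elsewhere, mostly in the overlapping OR56B1. MX1, a GTPase that traps viral nucleocapsids, rose by 1.69 on the log2 scale and the RNA exonuclease gene ISG20 by 1.76, while MX2, the related GTPase at the nuclear envelope, had 411 and 303 with MS8815, around the 361 and 404 with DMSO. With 1 library left out, the adjusted p of SAMD9 was 0.195 or 0.0968 when DMSO replicate 1 or 2 was removed, and 0.0852 or 0.056 when MS8815 replicate 1 or 2 was. That of TRIM22 was 0.186 or 0.0941 when DMSO replicate 1 or 2 was removed, and 0.0942 when MS8815 replicate 2 was.

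The genes of the ISG15 system rose, with 4 of 4 higher, against 24.5% of all genes, and ISG15 itself not analysed here. UBE2L6, the conjugating enzyme for ISG15, had 250.1 and 219 with MS8815, against 51.97 and 63.3 with DMSO (2.01 ± 0.21, adjusted p = 0.000717). HERC5, the main ISG15 ligase in human cells (chr4:88457117-88506163, plus strand), had 214 and 219.9 with MS8815, against 10.97 and 15.1 with DMSO (3.97 ± 0.29, adjusted p = 0.000135). Both were called in each alternative that kept them in the table and gave a test. Of the others, the neighbouring HERC6 rose by 2.48 on the log2 scale, and USP18, the protease that removes ISG15 and restrains the interferon receptor, by 3.10. USP18 was low, with 18.2 and 39.8 with MS8815, against 2.63 and 1.94 with DMSO, and 30.8% of its stretches of 31 bases occur elsewhere, mostly in USP41, so its reads are uncertain.

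At membranes the IFITM genes rose and BST2 fell. IFITM3, which keeps viruses from fusing with endosomes (chr11:319669-327537, minus strand), had 779.8 and 889.9 with MS8815, against 32.7 and 46.9 with DMSO (4.38 ± 0.22, adjusted p = 3.99e-05). IFITM2, its close paralog, had 264 and 202 with MS8815, against 61.1 and 88.2 with DMSO (1.64 ± 0.26, adjusted p = 0.00363). IFITM1, the form at the cell surface, rose by 3.03 on the log2 scale. The 3 paralogs share 35.3% (IFITM1), 45.2% (IFITM2) and 56.0% (IFITM3) of their stretches of 31 bases with other genes, foremost IFITM2 for IFITM1 and IFITM3, and IFITM1 for IFITM2, so the split of reads among them is uncertain. BST2, which encodes tetherin, the tether of budding virions (chr19:17402939-17405648, minus strand), had 1529 and 1306 with MS8815, against 2069 and 2066 with DMSO (-0.55 ± 0.088, adjusted p = 0.00314). The groups of BST2 did not overlap, and after scaling to B-cell genes it was higher, at 0.52 (adjusted p = 0.00578). It was the highest of the 38 genes in both groups, at 1267 normalised counts per kilobase of exon with MS8815, against 1848 with DMSO. Without DMSO replicate 1 the adjusted p was 0.0698 for BST2 and 0.0822 for IFITM2, without DMSO replicate 2 it was 0.0698 for BST2 and 0.0542 for IFITM2, and after quantile normalisation 0.0664 for IFITM2. With a DMSO library left out the log2 fold change was -0.55 in both fits for BST2, and 1.38 and 1.90 for IFITM2.

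Of the remaining 7 genes, 6 rose, against 24.5% of all genes, and EPSTI1 was not called. IFI44 had 103 and 75.4 with MS8815, against 5.25 and 11.2 with DMSO (3.35 ± 0.47, adjusted p = 0.00171), and IFI27, a small membrane protein gene, had 131 and 146 with MS8815, against 13.99 and 22.3 with DMSO (2.90 ± 0.33, adjusted p = 0.000673). IFI35 had 167 and 97.95 with MS8815, against 32.8 and 22.1 with DMSO (2.21 ± 0.37, adjusted p = 0.00718). PARP9, which works with the ubiquitin ligase DTX3L, had 182 and 214 with MS8815, against 118 and 96.2 with DMSO (0.88 ± 0.20, adjusted p = 0.0142). DTX3L, on the opposite strand and overlapping its exons by 217 bases, where reads cannot be told apart without strand, was at 0.95 ± 0.18 (adjusted p = 0.00637). For IFI44, IFI27, IFI35 and PARP9 the groups did not overlap. IFI6 rose by 2.66 on the log2 scale and XAF1, an antagonist of the apoptosis inhibitor XIAP, by 1.91, although 36.6% of the stretches of XAF1 occur in another gene, nearly all in PRAL on the opposite strand. EPSTI1 had 15.2 and 38.1 with MS8815, overlapping the 15.9 and 6.25 with DMSO. Leaving out DMSO replicate 1 gave adjusted p-values of 0.105 for PARP9, 0.087 for IFI35 and 0.0539 for IFI44, and leaving out DMSO replicate 2 gave 0.17 for PARP9 and 0.118 for IFI35. Without MS8815 replicate 2 that of PARP9 was 0.0536, and after quantile normalisation PARP9 was at 0.03 (adjusted p = 0.923) and IFI35 at 0.99 (adjusted p = 0.0958).

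Calls of the 8 other genes that rose (IFIT5, MX1, ISG20, HERC6, USP18, IFITM1, IFI6 and XAF1) were also lost in part: 2 (IFIT5 and HERC6) were called without DMSO replicate 1, 1 (IFIT5) without DMSO replicate 2, and 4 (IFIT5, HERC6, IFITM1 and IFI6) after quantile normalisation. Without either MS8815 library 7 of the 8 were called, all but MX1.

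The direction of a gene with MS8815 is given by its level in DMSO as a description only. The bands use the same DMSO values that form the fold change, and a gene of few counts can hardly be called lower. The order of the bands is thus partly fixed in advance. In bands chosen after the values were seen, 17 of the 19 genes with a mean normalised count under 20 in DMSO rose and none fell. RSAD2 is among the 17 and the 19, and the inferred filter on low values would fix its direction. Between 20 and 50, 5 of 6 rose and none fell, and between 50 and 100, 4 of 5 rose and 1 fell. Of the 8 genes at 100 or more, 2 rose and 3 fell. All genes of the table showed a like order, with 36.2%, 34.6%, 34.3% and 14.1% higher in these bands and 1.47%, 3.19%, 5.31% and 41% lower. BST2, SAMD9 and STAT2, the 3 highest in DMSO, together made 28.5% and 32.5% of the summed count of the 38 genes with MS8815, against 66.5% and 66.6% with DMSO. The sum itself was 1.7 times as high, at 9901 and 9341 with MS8815, against 5774 and 5541 with DMSO. Of the 38 genes, 8 (IFIT2, IFIT3, IFIT5, OAS3, OASL, SAMD9L, HERC5 and IFITM3) had a log2 fold change within 0.5 of the adherent-cell median of 4.05, which is 21.1%, against 6.98% of all genes and 76% of the 25 adherent-cell genes. That limit of 0.5 was also chosen after the values were seen. As counts, 8 of the 38 genes lay within it and 28 were called higher. Of all genes, 1308 lay within it and 4589 were called higher. Both the share near 4.05 and the share called higher were larger among the 38 genes than among all genes. The part of adherent-cell RNA in these values was not tested.

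**Figure D3:**
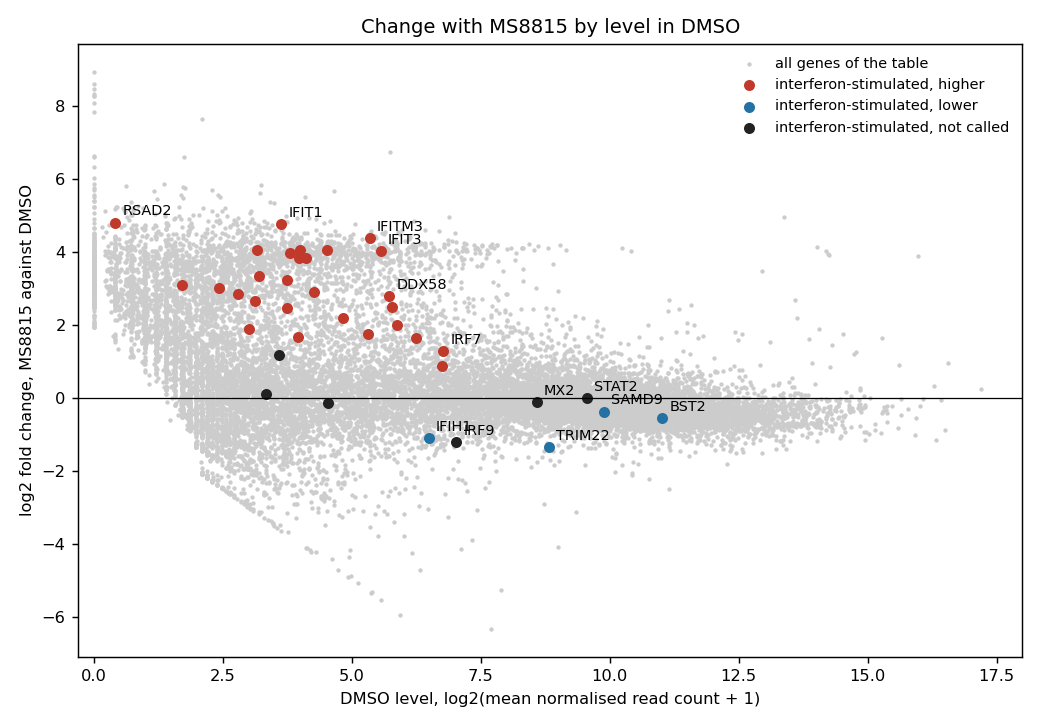
Log2 fold change with MS8815 against DMSO (y axis) by the mean level in DMSO, as log2(mean normalised read count + 1) (x axis); each grey point is 1 of 18744 genes and the large points are the 38 interferon-stimulated genes, coloured by call. Most genes that rose lie at low DMSO levels, many near 4 on the y axis, and BST2, SAMD9 and TRIM22, which fell, lie at high levels.

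With EPZ-6438 none of the 37 genes was called by limma, against 0.0328% of all genes (6 of 18320, with 0.0164% higher and 0.0164% lower), and the median log2 fold change was 0.24, against 0.0059 for all genes. That median was 0.12 without DMSO replicate 2 and 0.16 without EPZ-6438 replicate 2. At an unadjusted p under 0.05 there were 6 genes, and limma on log2 counts called 0 as well. IFIT1 had the smallest adjusted p, with normalised counts of 48.9 and 36.2 with EPZ-6438, against 17.5 and 16.1 with DMSO (log2 fold change 1.27 ± 0.33, adjusted p = 0.152). The groups of IFIT1 were apart, and the 95% interval of its change was 0.48 to 2.07. The others were IFITM2 at 0.70 (95% interval 0.16 to 1.24), IFITM3 at 0.62 (0.042 to 1.21), STAT2 at 0.17 (0.013 to 0.33), BST2 at 0.12 (0.022 to 0.22) and MX2 at -0.31 (-0.54 to -0.083). The groups did not overlap in 20 of the 37 genes, 14 of them higher, against 48.1% of all genes. Intervals were wide for low genes, such as -0.19 to 2.55 for USP18, so changes of that size are not excluded by these libraries. The summed count of the 37 genes was 8831 and 8545 with EPZ-6438, against 8548 and 8131 with DMSO. Of the adherent-cell genes, 20 of 23 were above 0 with EPZ-6438 and none was called; their median of 0.36 stood beside 0.66 for the membrane genes, 0.47 for the OAS genes, 0.43 for the ISG15 system, 0.39 for the IFIT genes, 0.35 for the sensors, 0.19 for the remaining 7 genes, 0.18 for the transcription factors and -0.16 for the other effectors, and the part of adherent-cell RNA in these values was not tested.

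With MS8815N, too, none of the 37 genes was called by limma, against 0.533% of all genes (98 of 18398, with 0.288% higher and 0.245% lower). Limma fitted to log2 counts also called 0, and 6 genes had an unadjusted p under 0.05. The median was 0.08, against 0.0043 for all genes, and was 0.23 without DMSO replicate 1 or without MS8815N replicate 2. IFITM2 had the smallest adjusted p, with 191 and 208 with MS8815N, against 92.9 and 133 with DMSO (0.84 ± 0.21, adjusted p = 0.125). IFIT1 had 39.6 and 49.1 with MS8815N, against 18.6 and 17.1 with DMSO (1.26 ± 0.32, adjusted p = 0.141), and IFITM3 had 111 and 120.4, against 51.3 and 73.1 with DMSO (0.91 ± 0.24, adjusted p = 0.14). The groups of these genes did not overlap. IFIT2 was at 0.79 (95% interval 0.17 to 1.40), BST2 at 0.16 (0.027 to 0.29) and IRF9 at -0.36 (-0.71 to -0.0073). The groups did not overlap in 21 of the 37 genes, 14 of them higher, against 46.7% of all genes. Of the adherent-cell genes, 22 of 23 were above 0 with MS8815N and THBS1 was called; their median of 0.47 stood beside 0.87 for the membrane genes, 0.69 for the IFIT genes, 0.52 for the OAS genes, 0.046 for the remaining 7 genes, 0.029 for the transcription factors, -0.10 for the ISG15 system, -0.14 for the sensors and -0.16 for the other effectors, and the part of adherent-cell RNA in these values was not tested. The comparisons of the 3 compounds with DMSO share the same 2 DMSO libraries, so IFIT1 at 4.78 with MS8815, 1.27 with EPZ-6438 and 1.26 with MS8815N, and IFITM3 at 4.38, 0.62 and 0.91, are not independent.

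**Figure D4:**
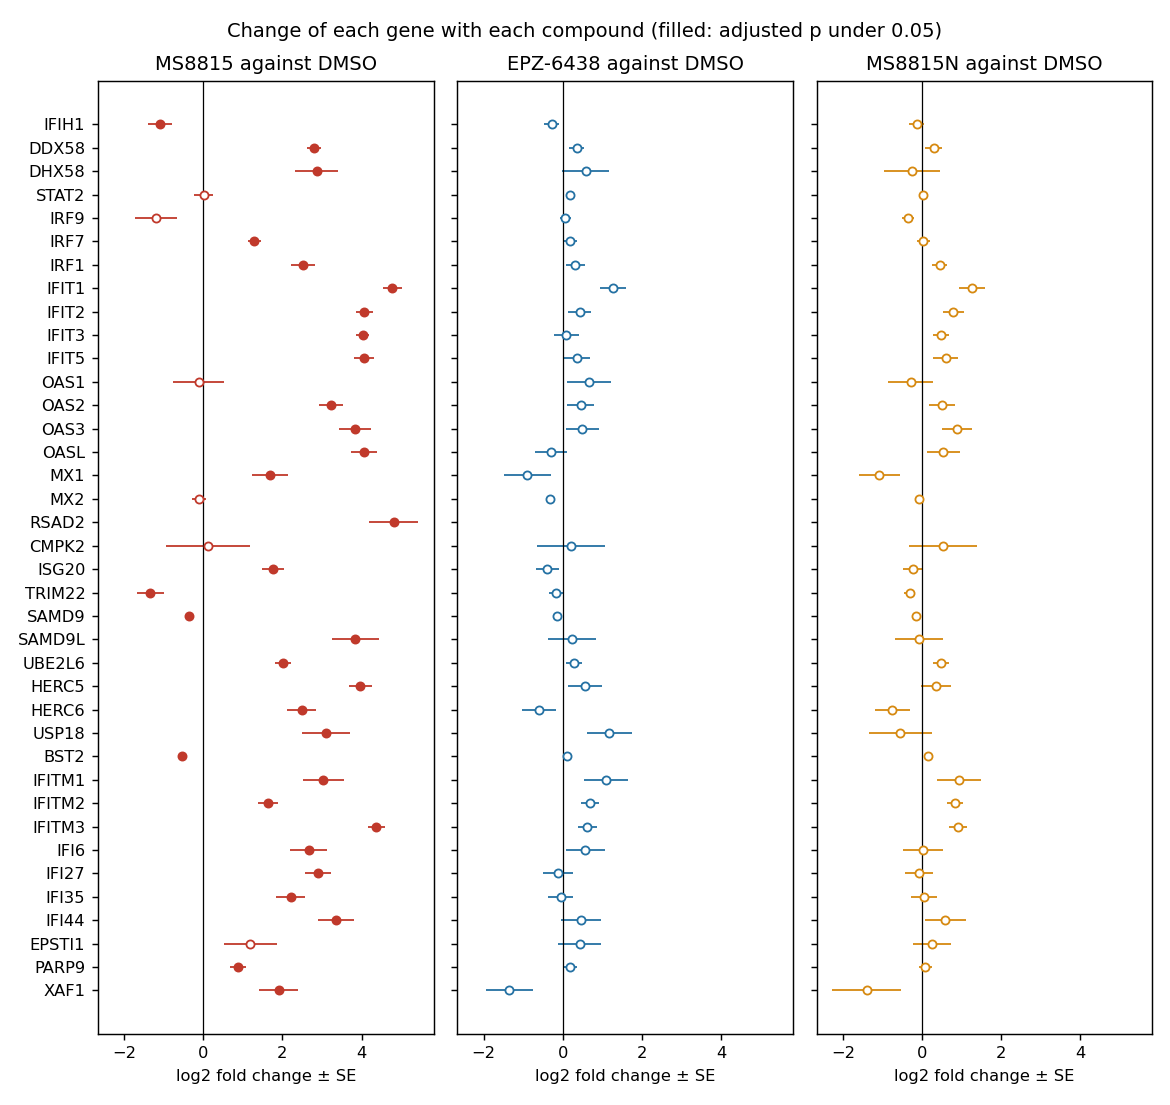
Log2 fold change ± SE (x axis) of each interferon-stimulated gene (rows) with MS8815, EPZ-6438 and MS8815N, each against DMSO in its own table of 2 and 2 libraries; filled points were called at an adjusted p under 0.05 over all genes of the table. Filled points occur in the MS8815 panel alone, 28 to the right of 0 and 4 to the left.

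The compounds were also compared with each other at the same dose and time, as 3 pairs over 37 genes on the joined scale, with p-values from limma adjusted over all 17467 genes and the 3 pairs together. Against MS8815N, its analog that is not a PROTAC, MS8815 had 27 genes higher and 3 lower (IFIH1, TRIM22 and BST2), which is 81.1% called, against 47.3% of all genes; 22.7% of all genes were higher and 24.6% lower. The median difference was 2.51 on the log2 scale, against -0.05 for all genes. IFIT3 had normalised counts of 1258 and 1127 with MS8815, against 106 and 93.1 with MS8815N, a difference of 3.57 (95% interval 2.96 to 4.18, adjusted p = 1.98e-05). IFITM3 had 1219.8 and 1392 with MS8815, against 111 and 120.4 with MS8815N (3.48, 3.02 to 3.95), and DDX58 had 594 and 547 with MS8815, against 115 and 84.98 with MS8815N (2.51, 2.06 to 2.97). BST2 had 2380.3 and 2033 with MS8815, against 3416 and 3766 with MS8815N (-0.71, -0.89 to -0.52, adjusted p = 0.000195). In these genes neither MS8815 library reached into the range of the MS8815N libraries.

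Against EPZ-6438, the enzymatic inhibitor, MS8815 had 27 genes higher and 4 lower (IFIH1, TRIM22, SAMD9 and BST2), which is 83.8% called, against 47.5% of all genes, with 22.8% of all genes higher, 24.7% lower and a median difference of 2.20. IFIT3 was at 3.94 (95% interval 3.33 to 4.56), with 102 and 57.3 with EPZ-6438, and OASL at 4.41 (3.59 to 5.24), the largest of these differences. IFIH1 was at -0.82 (-1.43 to -0.21, adjusted p = 0.0455) and SAMD9 at -0.23 (-0.40 to -0.065, adjusted p = 0.0413). STAT2 was called in neither comparison, with intervals of -0.48 to 0.43 against MS8815N and -0.62 to 0.29 against EPZ-6438. The pairs with MS8815 use the same MS8815 libraries, in which the adherent-cell and B-cell genes differed as given above, and scaling to B-cell genes gave 32 higher and 0 lower in each, against 73.4% of all genes higher for MS8815 against MS8815N and 73.6% for MS8815 against EPZ-6438.

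Between MS8815N and EPZ-6438 none of the 37 genes was called by limma, against 2.54% of all genes (1.49% higher, 1.05% lower), and 2 (USP18 and OASL) had an unadjusted p under 0.05. The median difference was -0.02. USP18 had 3.69 and 1.04 with MS8815N, against 9.16 and 9.60 with EPZ-6438 (-1.75, 95% interval -3.27 to -0.22, adjusted p = 0.0826), and OASL had 21.6 and 15.4 with MS8815N, against 10.4 and 9.35 with EPZ-6438 (0.83, 0.0022 to 1.66, adjusted p = 0.126). Without trend in the prior variance limma called OASL, and without EPZ-6438 replicate 1 it called IFIT3. The difference of IFIT1 was -0.018 with an interval of -0.62 to 0.58, and that of BST2 0.037 with an interval of -0.14 to 0.22. The interval was -0.60 to 0.31 for STAT2, -0.87 to 0.56 for TRIM22 and -1.97 to 1.78 for XAF1.

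Other genes of the pathway were read from lists. No value of the 14 listed interferon ligand genes was analysed here. Of 11 receptor, JAK and STAT genes, STAT3 (1.36 ± 0.10) and JAK1 (0.47 ± 0.062) rose with MS8815 and none fell, with a median of 0.08; 18.2% were called, under the 46.9% of all genes. The receptor chain gene IFNAR1 was at -0.076 ± 0.081 and IFNAR2 at -0.24 ± 0.14, neither called. In the list of 16 analysed of 18 other nucleic-acid sensing genes 3 rose and 5 fell, with a median of -0.07. Of the 16, 50% were called and 18.8% higher, near the 46.9% and 24.5% of all genes. The 5 that fell stand beside 22.4% of all genes lower. The DNA-sensing pair TMEM173 (STING, 3.83 ± 0.31) and MB21D1 (cGAS, 2.39 ± 0.22) rose, and TLR9, the endosomal sensor of unmethylated DNA, fell (-1.49 ± 0.15). Of 11 negative regulators 4 fell, against 22.4% of all genes. In the same list 3 rose, the JAK inhibitor genes SOCS3 (4.16 ± 0.21) and CISH (4.08 ± 0.19) and the phosphatase gene PTPN1 (0.45 ± 0.068). The median was 0.19. Of the 11, 63.6% were called, against 46.9% of all genes, and 27.3% were higher, near the 24.5% of all genes.

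Among 26 further antiviral interferon-stimulated genes, 13 rose (50%, against 24.5% of all genes) and 3 fell with MS8815, with a median of 0.64, which was under the median of 2.50 of the 38 genes. LGALS3BP, a secreted glycoprotein gene, had 2524 and 2519 with MS8815, against 146 and 149 with DMSO (4.08 ± 0.087), DDX60, a helicase gene that aids RIG-I, was at 3.76 ± 0.28, and LAMP3, a lysosomal membrane protein gene, at -1.64 ± 0.11 with the opposite sign. Of 15 targets of interferon-gamma analysed of 18 listed, 11 rose and 1 fell, with a median of 2.27. Of these, IDO1 (at 0 in both DMSO libraries) and CXCL11 (at 0 in DMSO replicate 1) were in the MS8815 table alone; over the other 13, 10 rose (76.9%, against 22.5% of the genes in all 3 tables) and 1 fell, with a median of 2.27. The peptide transporter gene TAP1 had 502 and 524 with MS8815, against 54.1 and 75.3 with DMSO (2.99 ± 0.21), the immunoproteasome gene PSMB9 was at 2.98 ± 0.24 and the GTPase gene GBP3 at 4.02 ± 0.22. In these libraries 10 of 10 RNAs that carry no poly(A) tail also rose, against 24.5% of all genes. Their median was 4.11, close to the 4.05 of adherent-cell genes. Of these RNAs, RNU1-1 was at 0 in both DMSO libraries and 7SK in DMSO replicate 2. Over the 9 in all 3 tables, 9 rose, again with a median of 4.11. With MS8815N 2 of 10 of these RNAs were called higher, against 0.288% of all genes, with a median of 0.51. With EPZ-6438 none of 9 was called, against 0.0328% of all genes, with 8 above 0 and a median of 0.28. The part of RNAs without a poly(A) tail in the result was not tested. With EPZ-6438 no gene of these lists was called, and the interferon-gamma targets had a median of 0.53. With MS8815N the tryptophanyl-tRNA synthetase gene WARS was the 1 gene called in these pathway lists, at 0.53 ± 0.032 (adjusted p = 0.00408), and the median of the interferon-gamma targets was 0.51.

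**Figure D5:**
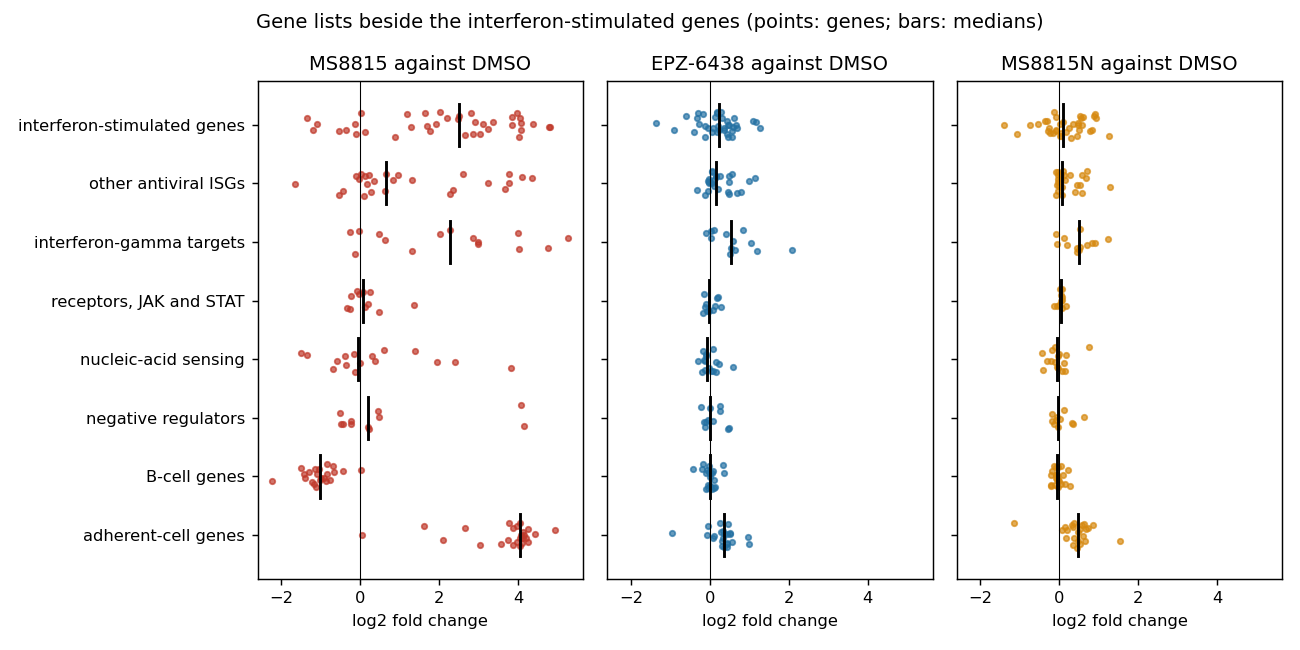
Log2 fold changes (x axis) with MS8815, EPZ-6438 and MS8815N, each against DMSO, of the interferon-stimulated genes and 7 other lists (rows); each point is a gene and each black bar the median of its list. With MS8815 the interferon-stimulated genes spread between -1.34 and 4.81, the adherent-cell genes have a median of 4.05, B-cell genes lie mostly below 0, and with EPZ-6438 and MS8815N the medians stay between -0.07 and 0.53.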

How the data were processed

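RNA was sequenced from 8 SUDHL6 libraries, 2 in each of 4 groups, after column purification of total RNA and preparation with 1 of 2 kits, per the labels' protocols, which do not say which library had which kit or that strand was used in counting. STAR 2.4.2, Salmon and GRCh38 are named in the submitters' processing notes. The authors deposited 1 table for each compound and the shared DMSO libraries, with log2-type variance-stabilised values normalised separately per table. The transform was inverted to normalised read counts within each table, and the DMSO values of a gene therefore differ between tables by a constant; each compound is given with the DMSO values of its own table. For the pairs of compounds the tables were joined by those constants over 17467 genes, with deviations of at most 3.55e-11 on the log2 scale. Depth was estimated from the steps between low values, of which 40.2% to 63.5% were whole multiples within 0.02, too few for a count test.

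Each compound was tested on the deposited log2-type values of its table with limma 3.58.1 in R 4.3.3 (two-sided, prior variance with a trend, 2 residual degrees of freedom). A gene was called at a Benjamini-Hochberg adjusted p under 0.05, adjusted over every gene in that table. Log2 fold changes, SE and 95% intervals came from limma on log2(normalised count + 1), a scale that understates changes of low genes. Pairs were fitted over all 8 libraries (4 residual degrees of freedom). The steps were also run on simulated counts in which few genes were changed, none of them low in DMSO. That run therefore does not cover the low genes or a shift of many genes at once. Positions are from GENCODE 29 (GRCh38), and promoters and shared stretches of 31 bases were read with Python 3.11.15.

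The genes and all lists were chosen with earlier results of these data known. Values in every library are given, per role, for the 2 genes with the highest DMSO level and the 2 with the smallest p with MS8815, and up to 3 genes of smallest p for each other list. IFIT5, CMPK2, MX2, USP18, EPSTI1, DTX3L, WARS, IFNAR1 and IFNAR2, the level bands and the limit around the adherent-cell median were added after the values were seen. Alternatives were quantile normalisation, scaling to B-cell genes, removal of the lower 50% of genes by level, limma without trend or on log2 counts, the joined fit, a replicate block, each library left out, and pseudocounts of 0.1 and 5.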

Additional observations from a re-analysis of the deposited data

How the results depend on the processing

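The number of interferon-stimulated genes called with MS8815 against DMSO, 32 of 38, was 15 to 31 with 1 library left out, the lowest without either DMSO library, against 19.1% to 47.7% of all genes. It was 8 (5 higher, 3 lower) of the 10 left when the lower 50% of genes was removed, against 62.5% of all genes there. It was 24 under quantile normalisation, of which 23 were among the 32, and 33 with B-cell genes made equal, of which 30 were. Of the calls over all genes, 52.3% were higher in the deposited scaling, 40.6% under quantile normalisation and 99% with B-cell genes made equal. The median of 2.50 was 1.25 under quantile normalisation, 3.53 with B-cell genes made equal, 1.26 with the lower 50% of genes removed and 2.16 with a pseudocount of 5, and 2.26 to 2.57 with 1 library left out; the cause was not tested. SAMD9 (0.70) and BST2 (0.52) reversed after scaling to B-cell genes. With EPZ-6438 the median of 0.24 was 0.13 after quantile normalisation, -0.13 over the 5 genes left with the lower 50% removed, and 0.12 to 0.20 with 1 library left out. With MS8815N the median of 0.08 was -0.082 over the 5 genes left with the lower 50% removed and 0.072 to 0.23 with 1 library left out. The count called was 0 for both compounds under each alternative run. For the pairs, removing the lower 50% left 6 genes. Of these, 3 were called for MS8815 against MS8815N and 4 for MS8815 against EPZ-6438, beside 62.7% and 62.1% of all genes. Between MS8815N and EPZ-6438 limma without trend called 1 gene, against 1.83% of all genes. For the 27 genes named by the rule, which was partly on their p, there were 332 single values with MS8815 under the alternatives. Of these, 289 kept their result, 4 of them with another sign and called in neither. Another 33 lost the call, 5 gained it, 3 moved with no test and 2 reversed. A kept result means the same side of the threshold. The pseudocounts of 0.1 and 5 gave no test, and there it means a log2 fold change within 0.5 of the main value.

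Same-numbered libraries did not deviate together (Pearson r between -0.039 and 0.0213 over 8733 genes). This cannot decide whether the numbers pair the cultures, since each group gives a single difference between replicates. With the replicate block limma called 33 genes with MS8815, against 46.4% of all genes. That fit added IRF9, at -1.20 with a limma adjusted p of 0.0415. Limma with the block called 0 with EPZ-6438 and 0 with MS8815N, against 0.0546% and 1.92% of all genes. In the pairs it called 30, 29 and 0, against 46.3%, 46.4% and 2.26% of all genes.

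The MS8815 libraries held about 13000000 and 14600000 reads, so genes of few reads, such as RSAD2 and USP18, have the least certain values. Replicates of the interferon-stimulated genes differed by a median of 0.255 (MS8815), 0.303 (EPZ-6438), 0.288 (MS8815N) and 0.349 (DMSO) on the log2 scale.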
